A study of Mus musculus with 18 samples.

Results

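Long non-coding RNAs grouped as nuclear were followed in mouse embryonic stem (ES) cells: 6 genes, Malat1, Neat1, Kcnq1ot1, Airn, H19 and Miat. They were chosen by symbol, through the RefSeq accessions of the long RNA expression tables. Of the 6, 4 genes had a matched accession, out of 14620 genes in the mRNA table and 13719 in the RNAome table: Malat1 (NR_002847), Neat1 (NR_003513), Kcnq1ot1 (NR_001461) and Miat (NR_003718 and NR_033657). No accession that the RefSeq reference table lists for Airn or H19 was among the rows, so no row was assigned to these 2 genes here. The reference table gave no symbol for 486 RefSeq rows of the mRNA table and 450 of the RNAome table, and whether one of them is H19 or Airn was not settled. A candidate row for H19 was among them, but it was not named and its values are not given, so H19 may have been measured.

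The cells were HPRT-deficient ES cells of strain C57BL/6 at passages 19 to 22. They were kept for 2 passages on feeder cells and 1 on gelatin, and then received either the DNA-crosslinking drug cisplatin at 2.5 µM or its solvent DMSO, for a time that the labels do not state. All 6 RNA samples shared the HPRT deficiency. The 3 cisplatin samples carry the codes 8.3.3, 8.4.3 and 8.5.3, and the 3 control samples 8.4.16, 8.5.16 and 8.6.16; the labels do not say whether these were separate cultures, so the spread behind each p-value may be technical only. Each RNA sample was read by mRNA sequencing, with a kit that selects RNA with a poly(A) tail, by small RNA sequencing, and by RNAome sequencing, in which total RNA without rRNA was fragmented and 1 library served for RNA of all lengths.

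These RNAs do not serve as templates for protein, and most of them work in the nucleus. Malat1 gathers in nuclear speckles, which store splicing factors, and Neat1 is the scaffold on which paraspeckles assemble. Kcnq1ot1 and Airn are transcribed from the paternal chromosome only and silence neighbouring imprinted genes, H19 is the maternally expressed RNA of the Igf2 locus, and Miat is a spliced nuclear RNA known from neurons, retina and ES cells. They also differ in how their 3′ ends are made, which bears on whether a poly(A) selection holds them. Malat1 and the long form of Neat1 are cut by RNase P and end in a triple helix in place of a poly(A) tail, while the short form of Neat1 is polyadenylated and Kcnq1ot1 is an unspliced transcript.

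The 3′ ends of Malat1 and long Neat1 are shown because they carry this shared design. They were read from the mouse genome NCBIM37 (mm9), minus strand, 5′ to 3′, as DNA. Capitals mark, in order, the U-rich motifs TTTCTTTT and TTTTGCTTTT and the A-rich tract that ends in AAAAGCAAAA. In Malat1 the bases after the A-rich tract are those of the tRNA-like RNA that is cut off during maturation.
Malat1, chr19:5795922-5796075: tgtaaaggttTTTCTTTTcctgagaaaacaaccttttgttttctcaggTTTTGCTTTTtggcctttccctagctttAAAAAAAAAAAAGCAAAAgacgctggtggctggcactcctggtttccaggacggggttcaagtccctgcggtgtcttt
Neat1, chr19:5824708-5824807: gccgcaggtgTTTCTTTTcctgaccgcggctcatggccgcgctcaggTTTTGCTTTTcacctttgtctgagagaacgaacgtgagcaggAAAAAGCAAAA
The A-rich tract of Malat1 lies at bases 6673 to 6690 of the 6982 bases annotated by GENCODE, which leaves 292 bases after it. In Neat1 the tract ends on the last of the 20771 annotated bases. As a measure of how common such letters are, 4.74% of 32851 RefSeq promoter windows of 300 bases, read on both strands, held TTTCTTTT and 0.323% held TTTTGCTTTT, which is the reverse complement of AAAAGCAAAA and so has the same share. The 3 motifs in this order on 1 strand were found in 0 of the 32851 windows.

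Malat1 and Neat1 are neighbours on chromosome 19, both on the minus strand. Malat1 occupies chr19:5795690-5802671 as 1 exon, and the long Neat1 transcript chr19:5824708-5845478, also as 1 exon. The deposited Neat1 row spans 3177 bases at the 5′ end, from 5842302 to 5845478, as read from the intervals that adjoin it. It therefore covers the part that short and long Neat1 share, and does not hold the 3′ end printed above. Kcnq1ot1 runs antisense within the Kcnq1 gene on chromosome 7 and is not in the GENCODE annotation used here under that name. Its start was placed by an exact match of the RefSeq promoter (GRCm38.p6 table) to NCBIM37, and with the RefSeq length of 83437 bases it covers chr7:150399016-150482452, minus strand, ending where the next deposited interval begins.

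The window that placed the Kcnq1ot1 start is printed because the promoter lies in an imprinted control region within an intron of Kcnq1. Capitals mark matches to CCAAT in the printed strand, a motif that factors such as NF-Y bind.
Kcnq1ot1 promoter, chr7:150482403-150482702: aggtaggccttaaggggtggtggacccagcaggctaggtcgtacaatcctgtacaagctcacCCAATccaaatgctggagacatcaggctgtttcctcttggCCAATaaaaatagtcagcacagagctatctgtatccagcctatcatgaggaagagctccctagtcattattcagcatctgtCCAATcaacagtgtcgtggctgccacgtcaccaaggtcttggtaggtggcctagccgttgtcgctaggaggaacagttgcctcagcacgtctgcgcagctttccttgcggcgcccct
It held 3 matches. CCAAT occurred at least once, on either strand, in 37.4% of the 32851 windows, and 3.37% held 3 or more. The match is a description of the letters, not of binding.

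All values were read counts, summed to between 12308411 and 19177348 on RefSeq rows per mRNA library and between 5227803 and 20217900 per RNAome library. Control 8.4.16 was the shallowest on RefSeq rows in both assays, and these rows took 11.5% of its RNAome counts against 16.3% to 21.6% in the other RNAome libraries. Levels below are CPM, the counts of a gene divided by the TMM-scaled total of its library, within an assay. In these bulk samples fewer cells of a type and less RNA per cell cannot be told apart. Cdkn1a, a p53 target that checks the treatment, rose with cisplatin by 1.16 ± 0.09 (SE) on the log2 scale in mRNA sequencing (edgeR adjusted p = 3.24e-07) and by 1.30 ± 0.26 in RNAome sequencing (edgeR adjusted p = 0.00751). Hprt had 41 counts over the cisplatin and 34 over the control mRNA libraries. The ES cell markers chosen, all 10 of which were in both tables, summed to 4862 to 5118 CPM in the cisplatin mRNA libraries. In the control mRNA libraries they summed to 5685 to 5957 CPM. Of these 10 markers 8 were called lower (edgeR adjusted p under 0.05), where 19.3% of all genes tested were. Markers of feeder fibroblasts summed to 229 to 335 CPM with cisplatin and 241 to 309 CPM in controls, with Lum, Dcn, Twist2 and Prrx1 not listed, and trophectoderm markers to 143 to 161 and 112 to 136 CPM, with Cdx2 and Elf5 not listed. Primitive endoderm markers summed to 63.5 to 75.3 and 83.1 to 113 CPM, with Foxa2 and Afp not listed, and neural markers to 447 to 460 and 505 to 510 CPM, with Dcx not listed.

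Per length, the order of the 4 RNAs in mRNA sequencing was Malat1, Neat1, Miat and Kcnq1ot1. Over the 6 mRNA libraries Malat1 stood at 47.1 ± 3.3 CPM per kilobase (SD, n = 6), the deposited Neat1 row at 9.67 ± 0.42, Miat, with 8760 exon bases in GENCODE, at 0.513 ± 0.219, and Kcnq1ot1 at 0.0627 ± 0.0144. No 2 neighbours in this order overlapped in any library: the lowest Miat value was 0.265 and the highest Kcnq1ot1 value 0.0836 CPM per kilobase. In RNAome sequencing Malat1 was again first, with 16.2 ± 2.0 CPM per kilobase, and Neat1 second, with 0.466 ± 0.135. Kcnq1ot1 followed with 0.0929 ± 0.0253, and Miat was last with 0.0278 ± 0.0158. Miat and Kcnq1ot1 thus stood in opposite order in the assays, without overlap in either: in RNAome sequencing the lowest Kcnq1ot1 value was 0.0644 and the highest Miat value 0.0418 CPM per kilobase. By rank among all genes of a table by mean CPM, without regard to length, Malat1 was number 490 in mRNA and 180 in RNAome sequencing, Neat1 6199 and 7708, and Kcnq1ot1 10912 and 2589.

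**Figure D1:**
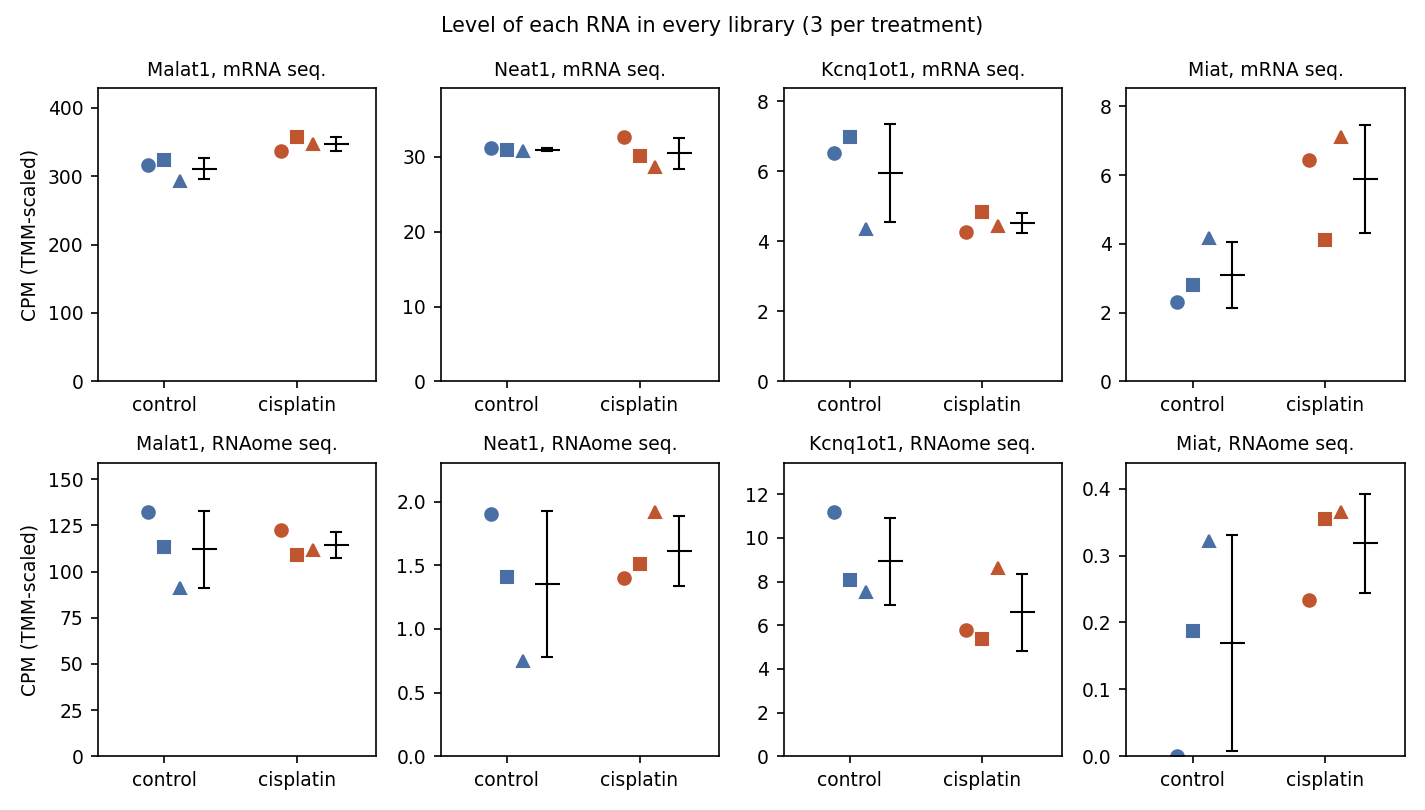
Level of Malat1, Neat1, Kcnq1ot1 and Miat (CPM after TMM scaling, vertical axes from 0) in each of 3 control and 3 cisplatin libraries of mRNA sequencing (top) and RNAome sequencing (bottom); points are libraries and the bar beside them is the mean ± SD. Malat1 in mRNA sequencing is the panel of a called change in which the groups do not overlap, with 293 to 323 CPM in controls and 337 to 357 CPM with cisplatin.

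Whether cisplatin changed these RNAs was asked first in mRNA sequencing, where 4 of them could be tested and 2 passed, Malat1 and Miat, both higher. The background was high: edgeR's quasi-likelihood test at an adjusted p under 0.05 called 37.8% of the 13924 genes tested, 18.5% of the genes higher and 19.3% lower, so that 2 of 4 is no unusual share. The balance depended on scaling: 2582 genes were higher and 2687 lower under TMM, 3869 and 1690 with no scaling, which moved the median of all genes from 0.01 to 0.11 on the log2 scale, and 3610 and 1844 with totals of all features. Malat1, the speckle RNA, read 337, 357 and 347 CPM in cisplatin 8.3.3, 8.4.3 and 8.5.3, and 316, 323 and 293 CPM in control 8.4.16, 8.5.16 and 8.6.16. Each cisplatin library was above each control library, and the share of all genes that parted in this way was not counted. The means were 347 ± 10 and 311 ± 16 CPM (SD, n = 3 each), a log2 difference of 0.16 ± 0.05 (SE), or 1.12-fold (edgeR adjusted p = 0.0197). With no scaling it was 0.25 (edgeR adjusted p = 0.000913), about as far above the median of all genes as under TMM, and with totals of all features 0.24. The call was lost on leaving out cisplatin 8.4.3 (edgeR adjusted p = 0.106), cisplatin 8.5.3 (0.0596) or control 8.6.16 (0.0681), with log2 differences of 0.13, 0.16 and 0.11.

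Miat showed the largest relative difference of the 4 RNAs, at the lowest counts. Its row NR_033657 read 6.44, 4.10 and 7.11 CPM in cisplatin 8.3.3, 8.4.3 and 8.5.3, and 2.32, 2.82 and 4.18 CPM in the controls in the order above. The groups overlapped, since cisplatin 8.4.3 lay just below control 8.6.16. The means were 5.89 ± 1.58 and 3.10 ± 0.96 CPM (SD, n = 3 each), resting on 208 and 111 counts, and the log2 difference of 0.88 ± 0.25 (SE), or 1.84-fold, passed the test (edgeR adjusted p = 0.0104). The second Miat row, NR_003718, is not independent of it: its counts were equal in 5 of the 6 libraries and differed by 1 in control 8.5.16. Without cisplatin 8.5.3 the log2 difference was 0.73 and missed the threshold (edgeR adjusted p = 0.0541).

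Neat1, the paraspeckle scaffold, gave no call. It read 32.7, 30.1 and 28.7 CPM with cisplatin and 31.2, 30.9 and 30.8 CPM in the controls, in the same order of samples. The controls lay within the range of the cisplatin libraries, and the log2 difference was -0.02 ± 0.08 (SE; edgeR adjusted p = 0.858). Kcnq1ot1, the silencer of the Kcnq1 domain, read 4.26, 4.84 and 4.45 CPM with cisplatin against 6.51, 6.98 and 4.34 CPM in the controls. Control 8.6.16 sat among the cisplatin libraries, and the other two controls were above all of them. The log2 difference of -0.39 ± 0.19 (SE), on 164 and 210 counts, missed the threshold (edgeR adjusted p = 0.124). Without control 8.6.16 it was -0.59 and passed (edgeR adjusted p = 0.0131). In mRNA sequencing the ES cell, primitive endoderm and neural marker sums were lower, and the trophectoderm sum higher, in each cisplatin than in each control library. They thus moved with the Malat1 difference. Of 7 tested primitive endoderm markers 1 was called lower, Lama1, which made up most of that sum. Of 9 tested neural markers 3 were called lower and 1 higher, and of 7 trophectoderm markers 3 higher. In RNAome sequencing the trophectoderm and primitive endoderm sums overlapped between treatments, and the ES cell and neural sums did not. The ES cell sum was 344 to 364 CPM with cisplatin and 417 to 446 CPM in controls. The neural sums nearly touched, at 29.5 to 30.3 and 30.4 to 32.8 CPM. The part of these markers in the Malat1, Miat and Kcnq1ot1 values was not tested.

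In RNAome sequencing none of the 3 RNAs that could be tested passed, and 2.05% of the 9861 genes did. At an unadjusted p under 0.05 edgeR gave 0 of the 3, and DESeq2 called 0 of the 3. Malat1 read 123, 109 and 112 CPM with cisplatin and 132, 113 and 90.9 CPM in the controls, and the groups overlapped throughout. Its log2 difference was 0.03 ± 0.18 (SE; edgeR adjusted p = 0.966), with an SE of 0.18 against 0.05 in mRNA sequencing. Neat1 read 1.40, 1.51 and 1.92 CPM against 1.90, 1.41 and 0.75 CPM, on 79 and 32 counts, with a log2 difference of 0.30 ± 0.35 (SE; edgeR adjusted p = 0.792). Kcnq1ot1 read 5.78, 5.38 and 8.60 CPM against 11.2, 8.06 and 7.50 CPM. Here cisplatin 8.5.3 overlapped the controls, and the log2 difference of -0.43 ± 0.21 (SE) was not called (edgeR adjusted p = 0.372). It was -0.62 with no scaling, -0.16 with totals of all features, and -0.64 to -0.28 on leaving out 1 library, all uncalled. Miat had 4, 8 and 4 counts with cisplatin and 0, 2 and 3 in the controls, too few for the filter on low counts, and a difference was not detectable at this depth.

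**Figure D2:**
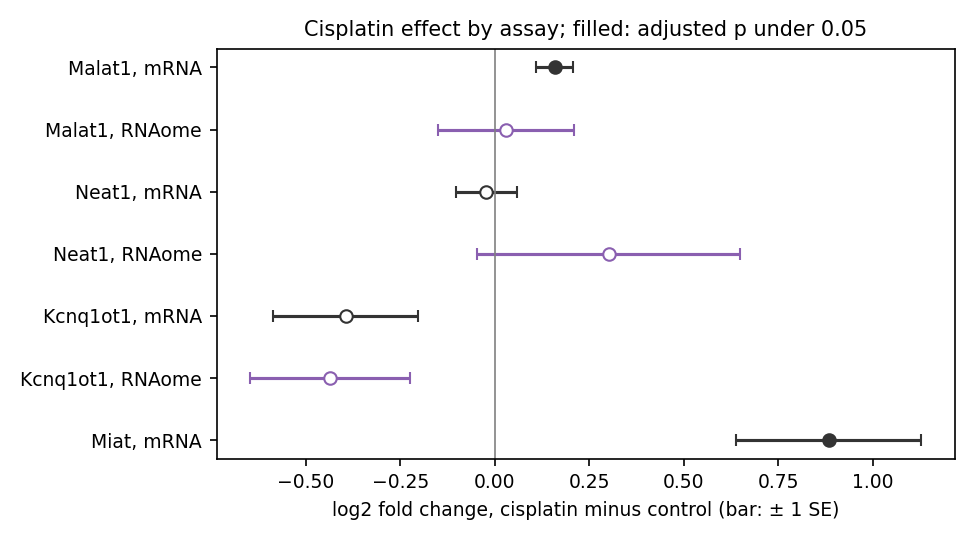
Log2 fold change of cisplatin against control for each RNA and assay with enough counts to test (horizontal axis; bars are 1 SE on each side, 3 libraries per treatment); filled points passed edgeR's adjusted p under 0.05. Malat1 and Miat in mRNA sequencing are filled, and the Kcnq1ot1 points of the assays sit at -0.39 and -0.43.

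Whether an effect differed between assays was tested as an interaction over the 12 libraries, in a fit of the 12920 genes of both tables. No member passed, and 0% of the genes did in edgeR at an adjusted p under 0.05. The count at an unadjusted p under 0.05 was 756 genes and 0 of the 4 members, a fit with the RNA sample as a block called 11 genes and no member, and DESeq2 called 39 genes, with an adjusted p for Malat1 alone of the 4, which it did not call. The difference of log2 effects, RNAome minus mRNA, was -0.12 ± 0.17 (SE) for Malat1, 0.33 ± 0.31 for Neat1, -0.04 ± 0.29 for Kcnq1ot1 and -0.20 ± 0.89 for Miat. The Malat1 call in mRNA sequencing alone is therefore not shown to differ from its RNAome value.

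Between the assays 3 of the RNAs differed in level. Relative to other genes, Kcnq1ot1 and Malat1 stood much higher in RNAome than in mRNA sequencing, and Neat1 somewhat lower. In the fit over 12 libraries the log2 level, RNAome minus mRNA, was 4.19 ± 0.14 (SE) for Kcnq1ot1, at percentile 99.0 of the 12920 genes (edgeR adjusted p = 1.90e-19). For Malat1 it was 2.14 ± 0.10, at percentile 97.7 (edgeR adjusted p = 1.54e-16), for Neat1 -0.70 ± 0.14, at percentile 23.1 (edgeR adjusted p = 8.99e-05), and for Miat -0.45 ± 0.36, at percentile 32.3 (edgeR adjusted p = 0.276). So 3 of the 4 passed, where 66.7% of all genes did. This fit took the 12 libraries as independent, although each RNA sample was read in both assays. With the RNA sample as a block the values were 4.20 for Kcnq1ot1, 2.14 for Malat1, -0.70 for Neat1 and -0.42 for Miat, and the same 3 passed. These differences are relative to the bulk of genes, whose median was -0.04 under TMM scaling. With no scaling beyond library totals the median gene was at -2.32, and Malat1 turned to -0.14 (edgeR adjusted p = 0.433). Kcnq1ot1 then stood at 1.90, Neat1 at -3.01 and Miat at -2.74, so the direction for Malat1 holds only relative to other genes. The counting is not said to use strand, so reads of Kcnq1, on the plus strand, may fall on the Kcnq1ot1 row. Their part in the level and ratios of Kcnq1ot1 was not tested.

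**Figure D3:**
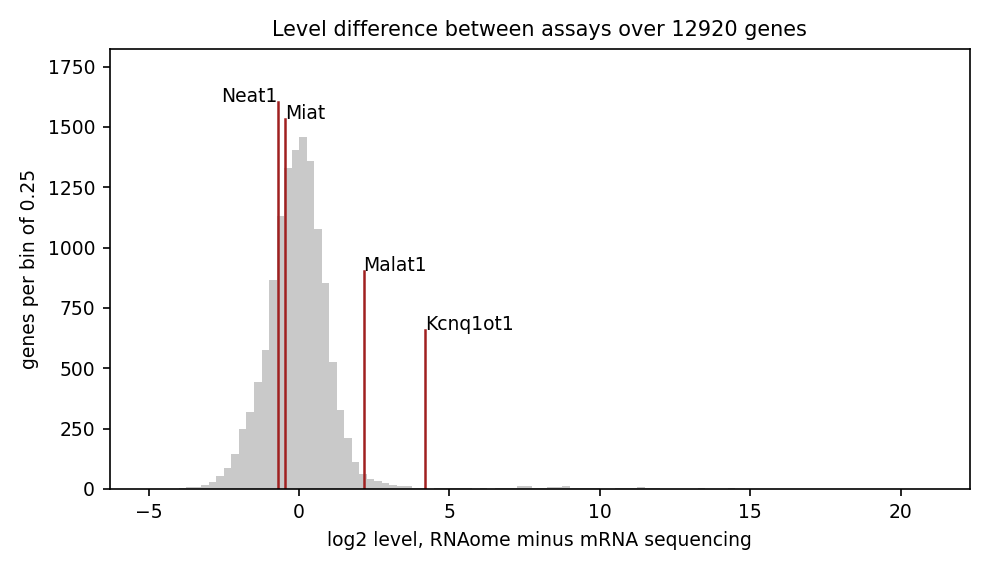
Histogram of the log2 level in RNAome minus mRNA sequencing over 12920 genes (horizontal axis; vertical axis, genes per bin of 0.25), with lines at the 4 RNAs; line heights carry no value. Neat1 (-0.70) and Miat (-0.45) lie within the bulk of genes, and Malat1 (2.14) and Kcnq1ot1 (4.19) on its right edge and beyond.

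Ratios of members within a library need no scaling between libraries. The 2 neighbours Malat1 and Neat1 parted: in mRNA libraries there were 10.3, 11.9 and 12.1 Malat1 counts per Neat1 count with cisplatin and 10.1, 10.5 and 9.51 in the controls. In the RNAome libraries of the same RNA samples the ratios were 87.4, 72.1 and 58.1 with cisplatin and 69.8, 80.5 and 121 in the controls. The ratio was higher in RNAome sequencing in 6 of 6 samples, by 2.89 ± 0.48 on the log2 scale (SD, n = 6), or 7.42-fold. A two-sided exact permutation test over the signs of the 6 differences gave p = 0.0312, the smallest it can give. Kcnq1ot1 over Neat1 moved further, from 0.131 to 0.226 in mRNA libraries to between 3.56 and 10 in RNAome libraries, 31.8-fold on average. Kcnq1ot1 over Malat1 rose from between 0.0127 and 0.0216 to between 0.0472 and 0.0845, 4.28-fold. Both were higher in RNAome sequencing in 6 of 6 samples (exact permutation p = 0.0312 each, and 0.0312 after Benjamini-Hochberg adjustment over the 3 ratios). The Neat1 counts behind the RNAome ratios were 7 to 34 per library, so single ratios carry a wide counting error.

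**Figure D4:**
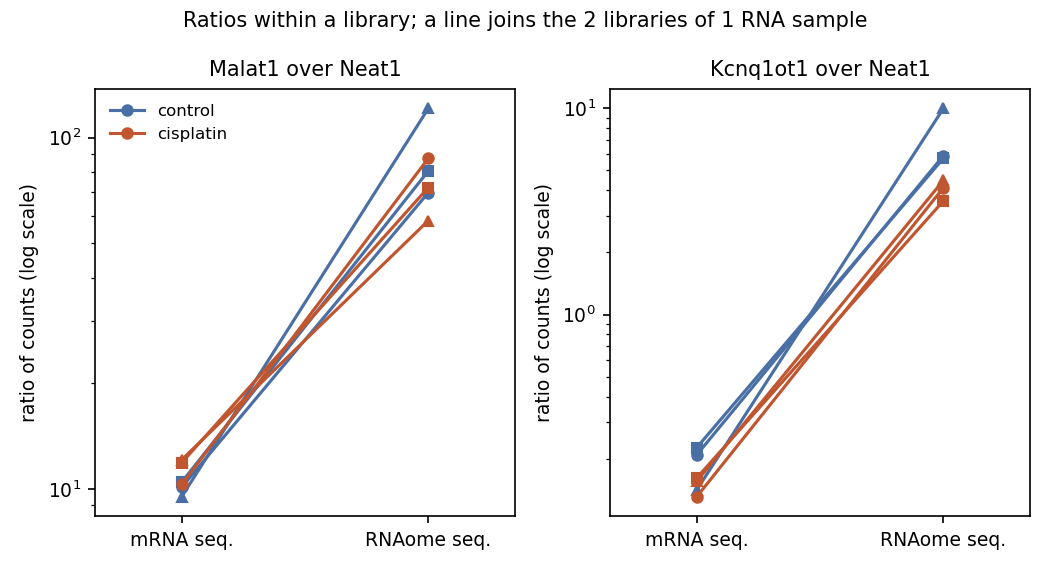
Counts of Malat1 (left) and Kcnq1ot1 (right) per count of Neat1 (log scale) in mRNA and RNAome sequencing; each line joins the libraries of 1 RNA sample, 3 controls and 3 cisplatin. All 6 lines rise in both panels, from 9.51 to 12.1 up to 58.1 to 121 for Malat1 and from 0.131 to 0.226 up to 3.56 to 10 for Kcnq1ot1.

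The rest of long Neat1 could be followed in part, since the tables also list intervals between RefSeq exons. The interval chr19:5802672-5842301 between Malat1 and the Neat1 row is 39.63 kilobases long, and 17.594 kilobases of it belong to long Neat1, the printed 3′ end included. It was listed in the RNAome table only, with 52, 89 and 46 counts with cisplatin and 18, 28 and 34 in the controls. In a fit of all RefSeq rows and intervals its log2 difference was 0.25 ± 0.24 (SE; edgeR adjusted p = 0.767), where 0.948% of the intervals tested were called. The whole interval averaged 0.0153 CPM per kilobase on the scale of that fit, against 0.0809 for the Neat1 row and 2.82 for Malat1. If all of its reads lay in the Neat1 part, that part would stand at 0.0345 CPM per kilobase, and the Neat1 row 2.35 times above it. The interval before the Neat1 start, chr19:5845479-5850973, had 0.0185 CPM per kilobase, no less than the one holding the body of long Neat1, and it also overlaps Frmd8 and Gm9783. Past the Malat1 3′ end, chr19:5771402-5795689 had 0.00472. The counting is not said to use strand, and reads within an interval cannot be placed, so these counts are no measure of long Neat1 alone.

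**Figure D5:**
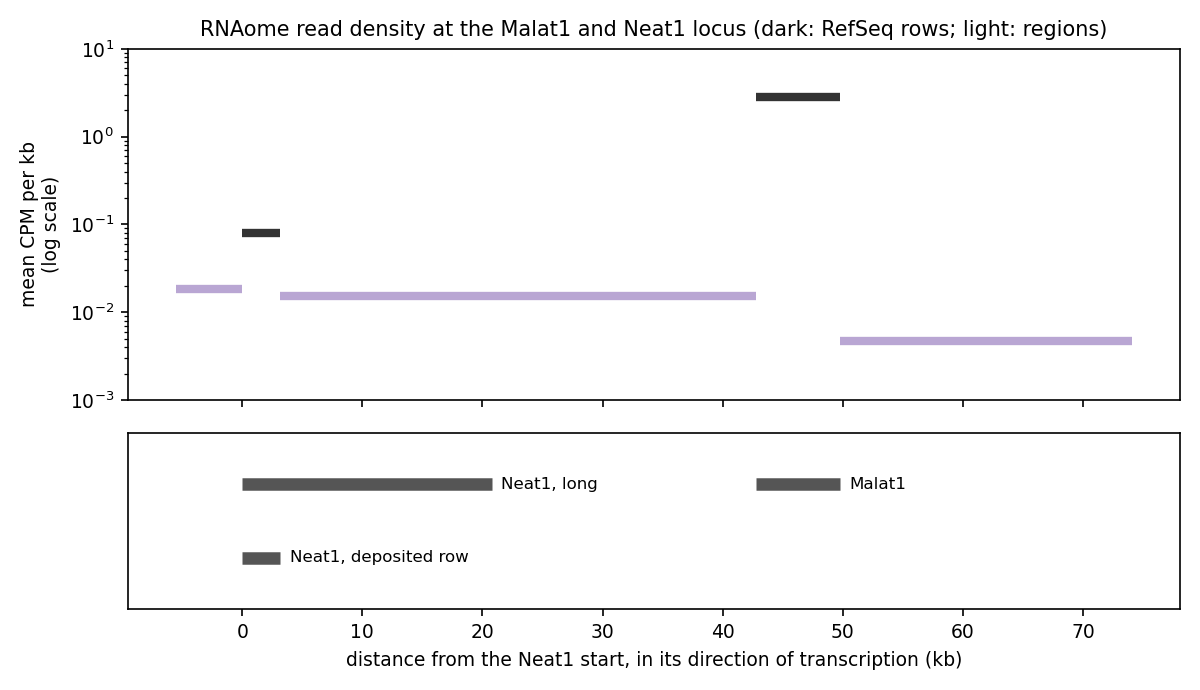
Mean RNAome read density (CPM per kilobase, log scale, 6 libraries) along the Malat1 and Neat1 locus against distance from the Neat1 start in its direction of transcription; dark lines are RefSeq rows, light lines are intervals between exons, and the lower panel draws the transcripts. The Malat1 row (2.82) stands far above the Neat1 row (0.0809), and the interval between them lies at 0.0153.

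Airn, which runs antisense to Igf2r and silences it on the paternal chromosome, could be looked at only through 6 intervals inside its annotated span, chr17:12934177-13052988. Of these, chr17:12972379-13007361 overlaps no other annotated gene. It held 2, 0 and 1 counts with cisplatin and 2, 1 and 1 in the controls in RNAome sequencing, and 5, 9 and 11 against 1, 12 and 5 in mRNA sequencing, too few to test. The highest, chr17:13022990-13033870, overlaps the protein-coding gene Gm17592 and had 6580 RNAome and 16274 mRNA counts in the expression tables but 946 and 3457 in the abundance tables. Its log2 difference was 0.15 ± 0.05 (SE; edgeR adjusted p = 0.0674) in mRNA sequencing, where 10.1% of intervals were called, and 0.32 ± 0.21 (SE; edgeR adjusted p = 0.615) in RNAome sequencing. The other 4 overlap Igf2r, a 7SK copy or the pseudogenes Gm16574 and Gm7162, so none of these reads can be given to Airn. For H19 (chr7:149761434-149764048, minus strand), the interval just upstream, chr7:149764052-149836672, held 7 counts over the 6 RNAome libraries. The microRNA cut from H19, miR-675, had no row under its name in either small RNA table, so no test of it was made.

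The small RNA tables held 1 row of fragments of Malat1, looked at after its values were seen. In small RNA sequencing it read 4.84, 4.76 and 7.12 CPM with cisplatin and 9.68, 9.70 and 10.7 CPM in the controls. The groups did not overlap, and the share of all rows without overlap was not counted. The log2 difference of -0.87 ± 0.22 (SE) missed the threshold (edgeR adjusted p = 0.0734; 0.0690 with DESeq2, 0.126 with no scaling, and 0.0701 to 0.236 on leaving out 1 library), where 3.65% of the 11715 rows were called. The cisplatin and control libraries of small RNA sequencing carried the same 3 indexes, so they were not all in 1 pool; the labels do not say whether pools followed treatment, and their part was not tested. In the small RNA table of RNAome sequencing, where 2.82% of rows were called, the fragments read 3.78, 6.85 and 12.7 CPM with cisplatin against 4.25, 6.40 and 9.94 CPM, a log2 difference of 0.14 ± 0.66 (SE; edgeR adjusted p = 0.972).

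Genes for proteins that work with these RNAs were called lower more often than higher in mRNA sequencing, where 19.3% of all genes were called lower and 18.5% higher. Of 25 paraspeckle proteins 18 fell (72.0%) and 0 rose, with a median log2 difference of -0.22 against 0.01 over all genes tested. With no scaling 10 fell and 0 rose (40.0%, against 12.1% of all genes). Sfpq, which binds Neat1 and is required for paraspeckles, read 373 ± 24 CPM with cisplatin and 533 ± 12 in controls (SD, n = 3 each), with a log2 difference of -0.52 ± 0.05 (SE; edgeR adjusted p = 2.40e-06). Rbm14 fell by 0.61 on the log2 scale, Matr3 by 0.34 and Pspc1, a core paraspeckle protein, by 0.69, while the Neat1 row itself was not called. Of 25 nuclear speckle proteins 12 fell (48.0%) and 1 rose (median -0.16), or 8 and 2 with no scaling. The splicing factors Srsf3, Srsf1 and Srsf2 fell by 0.39, 0.31 and 0.26, and the speckle scaffold Srrm2 by 0.30 on the log2 scale. The single riser, Clk4, a kinase of splicing factors named after its values were seen, rose by 0.37. Among 17 factors that process the ends of Malat1 and Neat1 or modify and cut RNA, 5 fell (29.4%) and 1 rose (median -0.13), which turned to 1 lower and 2 higher with no scaling. Drosha, the nuclease of microRNA precursors, fell by 0.35, Trnt1, the enzyme that adds CCA to tRNA ends, by 0.26, and Dgcr8, the partner of Drosha, by 0.20, while Pop5, a subunit of RNase P, rose by 0.35.

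The called genes beside Malat1, Neat1 and Kcnq1ot1 were all higher. Beside Malat1 and Neat1 they were few, and the share called higher was near that of all genes. Of 12 tested genes that flank Malat1 and Neat1, 3 rose (2 with DESeq2), where 18.5% of all genes did, and 0 fell (median 0.23): Frmd8, the neighbour upstream of Neat1, by 0.52, the NF-κB subunit Rela by 0.43 and the kinase Map3k11 by 0.27. Sipa1 had a log2 difference of 0.23 that was not called. In the Kcnq1 domain, which Kcnq1ot1 silences on the paternal chromosome, 6 of 13 tested genes rose (46.2%, against 18.5% of all genes) and 0 fell (median 0.26). DESeq2 called 4 of them, and edgeR with no scaling 8, against 27.8% of all genes. Osbpl5, a lipid transfer protein, read 9.47 ± 1.49 CPM with cisplatin and 3.71 ± 0.69 in controls (SD, n = 3 each), with a log2 difference of 1.36 ± 0.18 (SE; edgeR adjusted p = 3.99e-05). Slc22a18, a transporter, rose by 1.26, Ascl2, a trophoblast transcription factor, by 1.02, and Cd81, a tetraspanin, by 0.63. Ascl2 is also on the trophectoderm list, of which 3 of 7 tested genes rose, and that list's part in the domain's count was not tested. Cdkn1c and Phlda2 of the same domain, named after their values were seen, had uncalled log2 differences of 0.18 and -0.02. Kcnq1ot1 itself, at -0.39, was not called either, and a link between it and the risers was not tested.

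Of 6 tested genes of the Igf2r domain 3 fell and 0 rose, where 19.3% of all genes fell. DESeq2 called 2 genes, and with no scaling 0 fell and 1 rose. Wtap, a subunit of the RNA methylation complex, fell by 0.25, the chaperonin subunit Tcp1 by 0.15 and Igf2r, the target of Airn, by 0.14, while Mrpl18 had an uncalled -0.14. In the list of the H19 and Igf2 domain and its imprinted network 4 of 14 fell (28.6%) and 1 rose, with 3 called by DESeq2 and 2 lower and 2 higher with no scaling. Ctcf, which insulates Igf2 from its enhancers, fell by 0.39, Trim28, which keeps imprints methylated, by 0.38 and Slc38a4 by 0.22, while Lsp1, at about 1 CPM, rose by 1.06. Of 8 tested partners and neighbours of Miat 1 fell (12.5%), the RNA-binding protein gene Qk, by 0.76 (edgeR adjusted p = 2.01e-07). Asphd2 and Srrd, with log2 differences of 0.46 and 0.09, and Sf1, a splicing factor, with -0.07, were not called.

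Other long non-coding RNAs gave 7 of 25 lower and 2 higher (median -0.12), and the share called was near the 37.8% over all genes. Mirg, of the imprinted Dlk1 and Meg3 cluster, read 6.19 ± 0.87 CPM with cisplatin and 13.5 ± 1.3 in controls (SD, n = 3 each), with a log2 difference of -1.14 ± 0.14 (SE; edgeR adjusted p = 2.30e-05). Mir17hg, the host of a microRNA cluster, fell by 0.56, and Tsix, the antisense partner of Xist with which it can share unstranded reads, by 0.78. The 2 risers were Gas6, a protein-coding gene that the list held, by 0.60, and Trp53cor1, a p53-induced RNA named after its values were seen, by 1.44. All lists together held 142 distinct genes tested, of which 14 rose (9.86%, against 18.5% of all genes) and 49 fell (34.5%, against 19.3%). With no scaling 23 rose and 28 fell.

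In RNAome sequencing no gene of these lists was called among 122 tested, where 2.05% of all genes were. In edgeR 16 of the 122 (13.1%) had an unadjusted p under 0.05, near the share of 1382 among the 9861 genes, and DESeq2 called 0. The medians were -0.20 for paraspeckle and -0.16 for speckle proteins, against 0.00 over all genes tested, and 0.11 over the 7 genes tested of the Kcnq1 domain. With totals of all features, which moved the median of all genes to 0.30, those medians were 0.11, 0.18 and 0.45. Of the Kcnq1 domain genes that rose in mRNA sequencing, Cd81 alone was among the 7 tested here, so the domain medians cover different genes. The medians of the Igf2r domain (0.03), of other long non-coding RNAs (0.02) and of Miat partners (-0.15) had the opposite sign to mRNA sequencing. Pspc1 stood at -0.53 ± 0.16 (SE), Matr3 at -0.39 ± 0.16, Cd81 at 0.51 ± 0.17, Qk at -0.54 ± 0.17 and Mirg at -1.03 ± 0.30, each uncalled. Of 54 list genes called in mRNA sequencing and tested in RNAome sequencing, 45 had the same sign in both and 9 the opposite sign. The share over all genes called was not counted, so this is not shown to be particular to the lists. Among the 9 of opposite sign were Pop5 (-0.67 ± 0.33), Srsf2 (0.04 ± 0.16) and Tcp1 (0.09 ± 0.18). The assays read the same RNA samples, so their values are given side by side only. The error of these genes was larger in RNAome than in mRNA sequencing.

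The genes whose levels moved most like each RNA from library to library were found by Pearson's r of log2 CPM, centred within each assay, over the 12 libraries. For Malat1 they were Pkd1 (r = 0.962), Pycard (0.951) and Midn (0.949) of 7398 genes compared. For Neat1 they were Rpusd4 (0.952), Polb (0.946) and Agtpbp1 (0.934), and for Kcnq1ot1 Rbms1 (0.953), Tdrd12 (0.945) and Cxxc5 (0.939). Miat could be compared over the 6 mRNA libraries only, where Ccdc62 (0.995), Hrob (0.995) and Fancb (0.994) came first of 12899 genes. Libraries share depth and treatment across genes, and these are the highest of many values, so they are given as a description.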

How the data were processed

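The authors deposited whole-number read counts without normalization, an expression and an abundance table for each long RNA assay and small RNA tables. Bowtie, TopHat, edgeR and build mm9 are named in the submitters' processing notes, without roles. For the counting rule and use of strand, nothing was given in the sources used here. Tables list features above 0 in at least 3 libraries (tested). The symbols and lists were chosen with earlier results of these data known. RefSeq rows of the expression tables were matched to symbols through a RefSeq table (18457 of 18943 in mRNA, 17337 of 17787 in RNAome sequencing), with 1 row per gene. Tests used edgeR 4.0.16 in R 4.3.3 (quasi-likelihood, TMM, filterByExpr, two-sided, Benjamini-Hochberg over all features, adjusted p under 0.05), after a check on simulated counts. Alternatives were DESeq2 1.42.0, other scalings, filters and tables, and leaving out each library. The same code names 1 RNA sample in both assays, per the labels; deviations of its libraries correlated at 0.0742 to 0.269. Named were all members, up to 4 genes of smallest adjusted p per list and assay, and the 3 genes of highest r per member, compared where the mean log2 CPM was at least 1 (0.5 added to CPM). GENCODE vM1 on NCBIM37 gave coordinates. Totals per library are given with the results.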

Additional observations from a re-analysis of the deposited data

How the results depend on the processing

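Among the 3 level differences called, Kcnq1ot1 and Neat1 kept direction and call under all alternatives run. With no scaling beyond library totals Malat1 reversed (-0.14) and Miat became called (-2.74). In mRNA sequencing the uncalled Neat1 value changed sign with no scaling (0.074) and with totals of all features (0.059), and Kcnq1ot1 became called with a replicate block by the middle number of the sample codes (-0.54, edgeR adjusted p = 0.0118). That number is shared by 2 samples of each treatment, whose deviations correlated at 0.130 and 0.169 in mRNA and -0.106 and 0.103 in RNAome sequencing. Libraries of 1 RNA sample correlated between the assays at only 0.0742 to 0.269, so these values cannot settle whether the number marks a pairing. With that block 6393 genes and 3 members (2 higher, 1 lower) were called in mRNA sequencing. Malat1 was at 0.14 (edgeR adjusted p = 0.00258) and Miat at 1.15 (edgeR adjusted p = 2.78e-06). In RNAome sequencing the uncalled Malat1 value reversed with no scaling (-0.066) and with that replicate block (-0.15). Genes called in mRNA sequencing were 5269 and, with RefSeq rows and intervals fitted together, 9207 of 46404. In RNAome sequencing 202 of 9861 genes were called, and in separate fits 41 with no scaling (6 higher, 35 lower), 10 with totals of all features (10 higher, 0 lower; 9504 genes tested), 310 of 23586 rows with intervals included and 128 with the replicate block. For the difference between assays, 11 genes were called with the replicate block by RNA sample and 39 with DESeq2, which gave 897 genes an adjusted p. Leaving out 1 library or RNA sample gave the following ranges. Members called in mRNA sequencing ranged from 0 (without cisplatin 8.5.3) to 2, genes called in RNAome sequencing from 74 (without cisplatin 8.4.3) to 203, and genes called for the difference between assays from 0 to 26 (without control 8.4.16). In mRNA sequencing Malat1 ranged from 0.11 to 0.19, Miat from 0.73 to 1.14, Kcnq1ot1 from -0.59 to -0.24 and Neat1 from -0.081 to 0.014. In RNAome sequencing Malat1 ranged from -0.10 to 0.16 and Neat1 from -0.0089 to 0.52. The difference between assays ranged from -0.25 to 0.15 for Kcnq1ot1 and from -0.57 to 0.22 for Miat. The causes were not tested. In all, 258 recomputed values kept direction and side of the threshold, or as counts lay within 1.5 times the value above. These include uncalled values that stayed uncalled. Of the others, 14 changed sign, 4 lost a call, 3 gained a call and 13 were counts that moved further. No alternative was run for miR-675, which had no row. RNAome counts per library were as low as 7 to 34 for Neat1 and 0 to 8 for Miat.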
